A study of Mus musculus with 12 samples.

Results

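The Slc25 genes encode the mitochondrial carrier family, a group of small membrane proteins that move nucleotides, phosphate, amino acids, carboxylates, cofactors and acylcarnitines, mostly across the inner mitochondrial membrane. Genes were taken as members when their mouse symbol, looked up from the Ensembl identifier, was Slc25a followed only by a number. This gave 46 of the 39210 genes in the table, of which 39 had enough reads to be tested. The symbol rule made no use of expression, but members and lists were chosen with earlier results of these data known. Relatives with other symbols (Ucp1, Ucp2, Ucp3, Mtch1 and Mtch2) were treated as context.

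In a heart muscle cell these carriers are the doors between the cytosol, where ATP is spent, and the matrix, where fuel is oxidised. ADP enters and ATP leaves through the ADP/ATP carriers, phosphate follows through its own carrier, and long-chain fatty acids enter as acylcarnitines. The malate-aspartate shuttle, built from an oxoglutarate carrier and an aspartate/glutamate carrier, brings in reducing equivalents from glycolysis.

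Ventricles of male and female C57BL/6 mice were profiled by strand-specific mRNA sequencing in 12 libraries, 3 in each of 4 groups. Hypoxic males and hypoxic females lived in a chamber whose oxygen was taken down by 1% a day over 14 days to 7%, a level then held for 2 weeks; normoxic males and normoxic females breathed room air at 20.9% oxygen for 4 weeks. The labels give no age, no allele beyond the strain, no separation of the left from the right ventricle, and no statement that each library is a different animal, so p-values reflect only the scatter among these libraries, part of which may be technical. Levels are given as CPM (estimated counts scaled to a common library size, with library sizes corrected by TMM, a scaling that lines up the bulk of genes between libraries) and, when genes are compared with each other, as TPM, which also divides by transcript length.

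Library totals ran from 14915830 to 19397851 estimated counts. Some libraries stood apart from their group: the chi-square per degree of freedom between pairs was 43.9 and 44.2 for female normoxia library 3 against libraries 1 and 2, which differed from each other by 7.24. Female hypoxia library 1 gave 37.1 and 38.3 against its partners, against 9.53 between those, and the male hypoxia pairs ran from 24.3 to 52.7. Ventricular cardiomyocyte markers were abundant in every library (8 markers with a summed CPM of 41615 to 62842). Summed atrial markers were 105 to 274 CPM in normoxia and 219 to 1751 CPM in hypoxia. They were highest in male hypoxia library 2 (1751), female hypoxia library 3 (1115) and male hypoxia library 3 (993), and female hypoxia library 2 held 528. Results are also given without male hypoxia libraries 2 and 3, without these and female normoxia library 3, and, as a choice made after seeing the data, without male hypoxia libraries 2 and 3 and female hypoxia library 3. In these fits the lone male hypoxia library is assumed to vary like the other groups.

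Among the carriers, abundance was very unequal. Slc25a4 (ENSMUSG00000031633), the ADP/ATP carrier of heart and skeletal muscle, was the most abundant member at a mean of 2035 ± 59.1 TPM in male normoxia, 2502 ± 399 in male hypoxia, 2179 ± 150.4 in female normoxia and 2209 ± 141 in female hypoxia (SD, n = 3). Slc25a3, the phosphate carrier, came next at group means of 817 to 896 TPM. After a gap came Slc25a11, the oxoglutarate carrier, Slc25a5, the ADP/ATP carrier of most other tissues, and Slc25a12, the aspartate/glutamate carrier of muscle and brain, with means over all libraries of 210.0, 186 and 179.9 TPM. The order of these last 3 is not settled, since Slc25a12 ran from 95.2 to 301 TPM between libraries. Together the 5 made up 89.5% to 92.4% of the family's summed TPM in each library, and Slc25a4 alone 52.5% to 58.7%. Below them lay Slc25a20, Slc25a39 and Slc25a22 (means of 56.5, 55.2 and 43.0 TPM, with overlapping ranges). The place of Slc25a22 rests on average transcript lengths of 123 to 793 bases. Its group means by count were 18.9 to 27.4 CPM, against 65.0 to 215 CPM for Slc25a34, which ranked lower by TPM. Of the 39 tested members, 25 had a mean under 10 TPM.

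**Figure D1:**
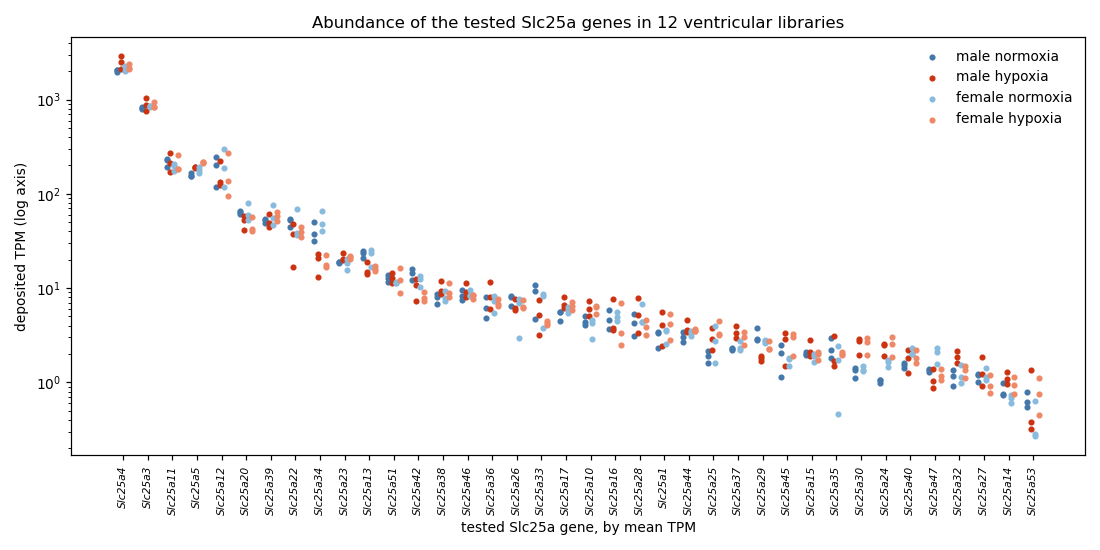
Deposited TPM of tested Slc25a genes (log axis), ordered by mean; each point is a library, coloured by group. Slc25a4 lies highest, Slc25a3 next, and the remaining members fall away to Slc25a53 at a mean of 0.626 TPM.

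The 7 members below the filter were Slc25a18, Slc25a21, Slc25a31, Slc25a41, Slc25a43, Slc25a48 and Slc25a54. Slc25a31, an ADP/ATP carrier of the male germ line, had 1 to 16 counts per library, Slc25a43 had 1 to 13 and Slc25a18, a glutamate carrier, 1 to 9. Slc25a48 reached 4, Slc25a21 reached 2, Slc25a41 reached 1 and Slc25a54 had 0 in every library. At this depth no difference between groups could be shown for them.

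More of the tested carriers were lower than higher in hypoxia. Averaged over the sexes, 11 of 39 tested members fell and 2 rose at an adjusted p under 0.05 in edgeR's quasi-likelihood test, against 12.9% of all 13960 tested genes lower and 15.0% higher (27.9% either way, and 33.3% of the members). The median log2 change was -0.18 over the tested members and -0.01 over all genes, and 29 of the 39 had a negative value, against 50.6% of all genes. Those that fell included Slc25a34, Slc25a13, Slc25a42, Slc25a29, Slc25a20, Slc25a33, Slc25a16, Slc25a47, Slc25a39 and Slc25a46, and those that rose were Slc25a30 and Slc25a24. Without male hypoxia libraries 2 and 3, Slc25a13, Slc25a33, Slc25a34 and Slc25a42 fell and Slc25a24 and Slc25a30 rose, 6 of the 13, when 8.83% of all genes were called; without female normoxia library 3 as well, 7 of the 13 passed, when 16.0% of all genes were called. Without the 3 hypoxic libraries of highest atrial markers, 2 of the 13 passed, Slc25a34 (-1.30, adjusted p = 0.0301) and Slc25a13 (-0.74, adjusted p = 0.0368), when 3.06% of all genes were called.

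**Figure D2:**
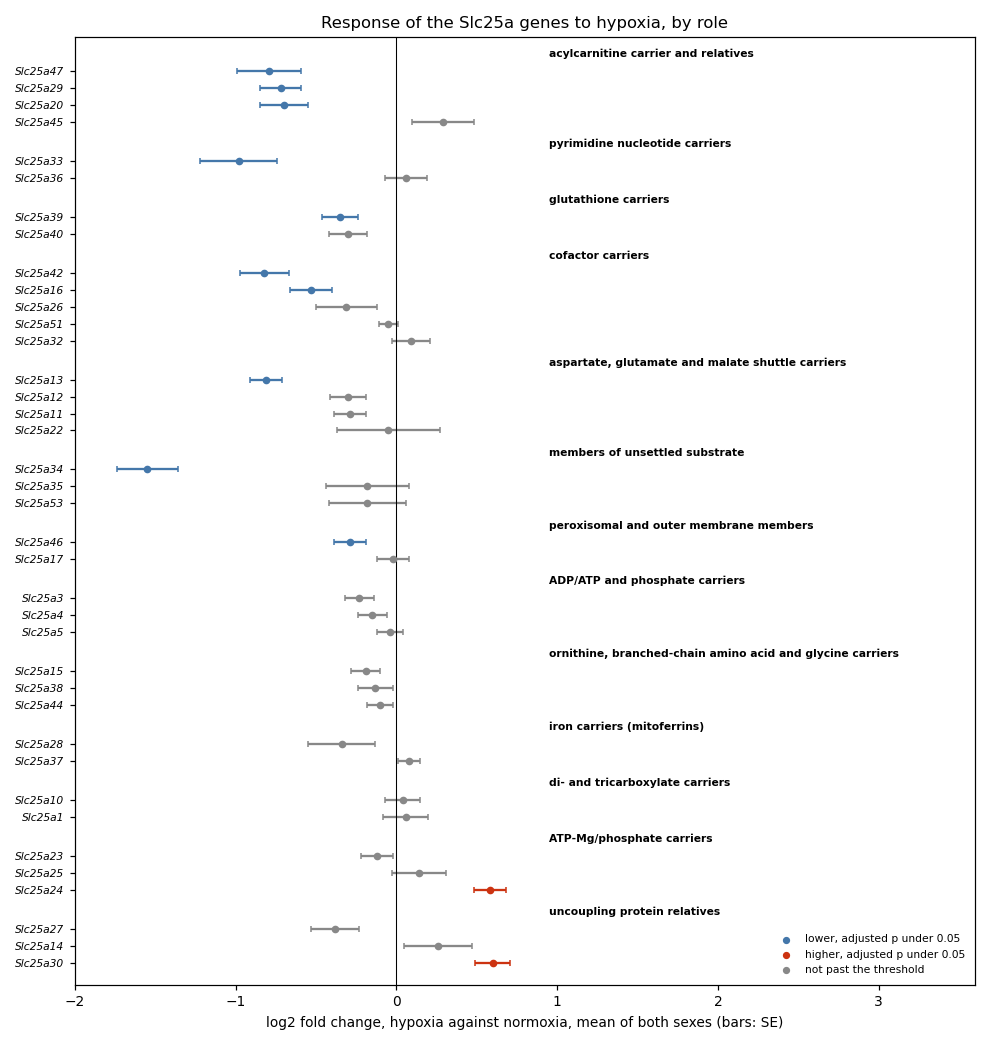
Log2 fold change of tested Slc25a genes, hypoxia against normoxia averaged over the sexes, with its SE, grouped by role; blue genes were lower and red genes higher at an adjusted p under 0.05. Slc25a34 has the lowest value at -1.55, and the 2 red genes, Slc25a30 and Slc25a24, lie at 0.60 and 0.58.

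These values depend on how libraries are scaled. TMM leaves the median log2 change of all genes at -0.01, whereas scaling by library size alone puts it at 0.20 and the deposited TPM at 0.29. A carrier with a small negative value on the TMM scale can thus have a positive one in TPM, and still lie below the median gene of its own scale. Examples are Slc25a3 (-0.23 by TMM, 0.07 in TPM), Slc25a4 (-0.15 and 0.15), Slc25a5 (-0.04 and 0.27), Slc25a11 (-0.29 and 0.04) and Slc25a46 (-0.29 and 0.03).

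Stretches of promoter are shown for the members that changed and held a motif of interest, so that the letters can be read beside the values below. RefSeq promoters (GRCm38.p6, 250 bases before to 50 after a start) were matched for 36 of the 46 members, giving 46 promoters. They were searched on both strands for ACGTG, a form of the core that hypoxia-inducible factors bind. Other forms of that core, such as GCGTG, were not searched, counted or put in capitals. The search also covered AAGGTCA and the longer TCAAGGTCA that contains it, the letters of estrogen-related receptor sites. Motifs are in capitals, 5′ to 3′ on the strand of the gene; in Slc25a34 the match lies on the opposite strand, so that TGACCTT is read.
Slc25a34, chr4:141623922-141623978, minus strand: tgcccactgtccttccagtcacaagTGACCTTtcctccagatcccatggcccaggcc
Slc25a13, chr6:6217268-6217322, minus strand: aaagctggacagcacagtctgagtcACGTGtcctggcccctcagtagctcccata
Slc25a33, chr4:149774268-149774299, minus strand: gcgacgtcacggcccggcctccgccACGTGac
Slc25a30, chr14:75787051-75787105, minus strand: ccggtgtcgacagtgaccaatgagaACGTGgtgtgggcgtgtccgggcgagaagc
ACGTG was found in 13 of the 46 member promoters (28.3%) and in 19.6% of all 32851 promoters. Counted by gene, ACGTG was held by 12 of the 36 matched members (33.3%) and by 21.8% of all 27025 genes. It lay in promoters of 2 of the 9 matched members that fell (22.2%, Slc25a13 and Slc25a33), near that share. Of the 2 that rose 1 held it (Slc25a30), and of 19 matched members that were tested and did not pass 6 did (31.6%). AAGGTCA was found in 1 member promoter, that of Slc25a34 (2.17%, against 4.72% of all), and TCAAGGTCA in 0 (against 0.423%). A match is a description of the letters and not a measured site.

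The bulk ADP/ATP and phosphate carriers did not pass. Slc25a4 read 6323, 6182 and 6631 CPM in male normoxia, 6667, 5983 and 5029 in male hypoxia, 5789, 6264 and 6810.5 in female normoxia and 6361, 5324 and 4886 in female hypoxia. The groups overlapped in both sexes (log2 -0.15 ± 0.09, SE, adjusted p = 0.252). Its share of the family's summed TPM, a ratio within each library that needs no scaling between libraries, was 52.5%, 52.7% and 55.3% in male normoxia and 57.8%, 58.7% and 57.7% in male hypoxia, with no overlap. In females the shares overlapped, at 52.8%, 53.8% and 56.7% in normoxia and 53.9%, 56.0% and 56.0% in hypoxia. By CPM, 21.5% of all tested genes had every hypoxic male library above every normoxic male library. The share still rests on the deposited transcript lengths, which varied between libraries for some members.

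Slc25a3 (ENSMUSG00000061904) was 1682, 1614 and 1772 CPM in male normoxia against 1558, 1409 and 1205 in male hypoxia, lower in every hypoxic library. In females it was 1573, 1619.6 and 1678 CPM in normoxia and 1661, 1378 and 1285 in hypoxia, where library 1 overlapped the normoxic range (averaged log2 -0.23 ± 0.09, adjusted p = 0.0732). With all libraries the phosphate carrier passed by DESeq2 (-0.22, adjusted p = 0.0295) and with upper quartile factors in edgeR (-0.24, adjusted p = 0.0442). By edgeR with TMM it passed when hypoxia library 1 of either sex was left out (-0.28 with adjusted p = 0.0181 without the female one, -0.27 with adjusted p = 0.0418 without the male one). In those fits 32.3% and 27.2% of all genes were called. Slc25a3 passed in only 4 of 26 alternatives to the averaged fit. Its value was -0.14 without male hypoxia libraries 2 and 3, and -0.03 with library size only (adjusted p = 0.803 by edgeR).

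On the TMM scale Slc25a5 (ENSMUSG00000016319) read 289, 273 and 316 CPM in male normoxia, 292, 236 and 272 in male hypoxia, 302, 278 and 339.6 in female normoxia and 343, 316 and 291 in female hypoxia (log2 -0.04 ± 0.08, adjusted p = 0.729). On the deposited TPM it passed upward with limma (0.27, adjusted p = 0.00734), a value just under that scale's median gene. Within the pair of ADP/ATP carriers, Slc25a5 accounted for 7.23 ± 0.273% of the summed TPM in male normoxia, 7.21 ± 1.09% in male hypoxia, 7.65 ± 0.589% in female normoxia and 8.90 ± 0.472% in female hypoxia. The lowest hypoxic female share, 8.36%, lay just above the highest normoxic female share, 8.15%, and the male shares overlapped. Reads of Slc25a5 and its processed copies may be hard to tell apart; the 1 copy listed in the table by that name had 0 counts.

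Of the shuttle carriers, 1 of 4 tested members fell, against 12.9% of all tested genes. That member was Slc25a13 (ENSMUSG00000015112), the aspartate/glutamate carrier also known as citrin, which in many tissues works beside Slc25a12. Its level was 131, 126 and 115 CPM in male normoxia and 66.5, 66.5 and 57.4 in male hypoxia. In females it was 117, 123 and 85.2 CPM in normoxia and 79.0, 68.0 and 59.8 in hypoxia. Every hypoxic library lay below every normoxic library of its sex (log2 -0.81 ± 0.10, adjusted p = 0.000584), a pattern that 6.92% of all genes and 4 of the 39 tested members showed in the same direction in both sexes. Without male hypoxia libraries 2 and 3 the change was -0.78 (adjusted p = 0.0156).

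The 2 abundant shuttle carriers had smaller values close to the threshold. Slc25a11 (ENSMUSG00000014606) stood at 555, 545 and 537 CPM in male normoxia and 457, 426 and 343 in male hypoxia. The female values were 485, 496 and 437 in normoxia and 519, 394 and 356 in hypoxia, overlapping through library 1 (averaged log2 -0.29 ± 0.10, adjusted p = 0.0581). Slc25a12 (ENSMUSG00000027010) stood at 243, 251 and 237 CPM in male normoxia, 220.1, 188 and 169 in male hypoxia, 226, 237 and 215 in female normoxia and 239, 166 and 159 in female hypoxia (-0.30 ± 0.11, adjusted p = 0.0535). With all libraries both passed by DESeq2 (adjusted p = 0.0242 and 0.0224), limma voom (0.0495 and 0.0432) and edgeR with upper quartile factors (0.0455 and 0.0403). By edgeR with TMM both passed without female hypoxia library 1 (-0.37 with adjusted p = 0.00756, and -0.40 with adjusted p = 0.00276) and without male hypoxia library 1 (-0.33 with adjusted p = 0.0442, and -0.36 with adjusted p = 0.0347). In those fits 32.3% and 27.2% of all genes were called. Slc25a11 also passed without female normoxia library 3 (-0.32, adjusted p = 0.0480). Slc25a11 passed in only 7 of 26 alternatives to the averaged fit, and Slc25a12 in 6. Without male hypoxia libraries 2 and 3 both had a value of -0.21. With library size only they had -0.09 and -0.11 and did not pass by edgeR (adjusted p = 0.475 and 0.369). Slc25a22, a glutamate carrier, varied widely between libraries (-0.05 ± 0.32, adjusted p = 0.917).

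Of the acylcarnitine carrier Slc25a20 and its close relatives, 3 of 4 tested members fell, against 12.9% of all tested genes. The relatives are not all carriers of fatty acid import. Slc25a20 (ENSMUSG00000032602), which exchanges acylcarnitine for carnitine and so sits between the enzymes Cpt1 and Cpt2, read 181, 181 and 190.5 CPM in male normoxia and 128, 110.3 and 91.8 in male hypoxia. Its female values were 139, 153 and 219 in normoxia and 140.1, 95.8 and 85.8 in hypoxia. The male groups did not overlap, and the female groups overlapped at hypoxia library 1 (averaged log2 -0.70 ± 0.15, adjusted p = 0.00568). Without male hypoxia libraries 2 and 3 the call was lost (-0.59, adjusted p = 0.0802).

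Slc25a29 (ENSMUSG00000021265), a carrier of basic amino acids related to Slc25a20, was 8.18, 11.0 and 8.68 CPM in male normoxia and 4.97, 3.81 and 4.18 in male hypoxia. In females it was 7.47, 7.43 and 7.34 CPM in normoxia and 7.40, 5.37 and 4.84 in hypoxia. The averaged change was -0.72 ± 0.13 (adjusted p = 0.00323), or -0.62 with an adjusted p of 0.0565 without male hypoxia libraries 2 and 3. Its male value, -1.11, was larger than its female value, -0.34, but the test of that difference did not pass (0.77, adjusted p = 0.665).

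Slc25a47 (ENSMUSG00000048856), best known from liver, was present at a low level of 3.52, 3.21 and 3.24 CPM in male normoxia, 2.91, 1.43 and 1.99 in male hypoxia, 5.35, 3.45 and 4.87 in female normoxia and 2.96, 2.30 and 1.98 in female hypoxia. Its groups were separate in both sexes (log2 -0.79 ± 0.20, adjusted p = 0.0138), on 30 to 83 counts per library. It did not pass without male hypoxia libraries 2 and 3 (-0.55, adjusted p = 0.129). The remaining relative, Slc25a45, had a positive value that missed the threshold (0.29 ± 0.19, adjusted p = 0.287).

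Slc25a34 (ENSMUSG00000040740), a member whose substrate is not settled and which is most prominent in muscle, had the lowest value of any tested member. It read 173, 216 and 147 CPM in male normoxia and 86.7, 63.0 and 45.2 in male hypoxia. Female libraries read 168, 196 and 280.2 CPM in normoxia and 86.2, 60.7 and 59.1 in hypoxia. Hypoxic and normoxic libraries were far apart in both sexes, and hypoxic levels were 0.341 times normoxic ones (log2 -1.55 ± 0.19, adjusted p = 0.000474). The fall passed in males (-1.46, adjusted p = 0.00670) and in females (-1.65, adjusted p = 0.0101), and in all 26 alternatives to the averaged fit, where it ran from -1.68 to -1.23. Female normoxia library 3 held the highest level of Slc25a34 and of Slc25a20.

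**Figure D3:**
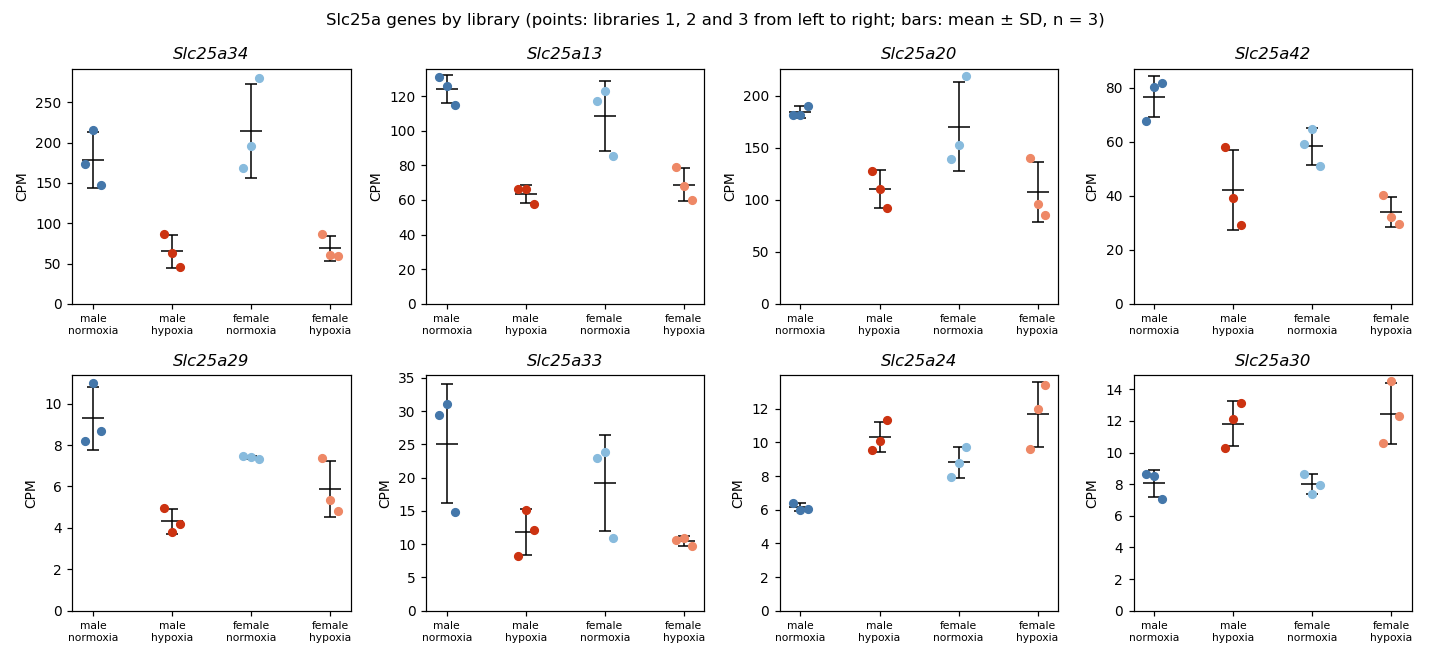
CPM of 8 Slc25a genes in every library (points), with the mean and SD of each group of 3 (bars); axes start at 0. Within each sex, the hypoxic libraries lie below the normoxic libraries for Slc25a34, Slc25a13 and Slc25a42, and above them for Slc25a30. For the others 1 or more libraries overlap in at least 1 sex.

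Among the cofactor carriers, Slc25a42 and Slc25a16 fell. Slc25a42 (ENSMUSG00000002346), which brings coenzyme A into the matrix, was 67.9, 80.5 and 81.7 CPM in male normoxia and 58.1, 39.3 and 29.2 in male hypoxia. Female values were 59.3, 64.7 and 51.1 CPM in normoxia and 40.2, 32.3 and 29.7 in hypoxia. All hypoxic libraries were lower than the normoxic ones of their sex (log2 -0.82 ± 0.15, adjusted p = 0.00314). Without male hypoxia libraries 2 and 3 it still passed, at -0.59 (adjusted p = 0.0271), and without female hypoxia library 3 as well it did not (-0.55, adjusted p = 0.0558).

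Slc25a16 (ENSMUSG00000071253), also linked to coenzyme A, was 26.0, 23.8 and 20.2 CPM in male normoxia, 16.4, 14.3 and 15.7 in male hypoxia, 19.1, 21.5 and 19.9 in female normoxia and 20.0, 10.8 and 13.2 in female hypoxia. Only female hypoxia library 1 reached the normoxic range (log2 -0.53 ± 0.13, adjusted p = 0.0137). The call was lost without male hypoxia libraries 2 and 3 (-0.48, adjusted p = 0.125) and with an offset for transcript length (-0.41, adjusted p = 0.295).

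Female normoxia library 3 was low for Slc25a26, the S-adenosylmethionine carrier, at 8.69 CPM against 21.8 and 19.4, and for Slc25a35, a member of unsettled substrate, at 1.79 CPM against 5.73 and 7.60. These 2 members were singled out after their values were seen. Neither passed with all libraries (-0.31, adjusted p = 0.250, and -0.18, adjusted p = 0.641), and both did without it (-0.46, adjusted p = 0.00918, and -0.38, adjusted p = 0.0398). The folate or FAD carrier Slc25a32 (0.09) and the NAD carrier Slc25a51 (-0.05) had values near 0 and did not pass (adjusted p = 0.605 and 0.514).

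Among pyrimidine nucleotide carriers, 1 of 2 fell, against 12.9% of all tested genes. Slc25a33 (ENSMUSG00000028982) was 29.4, 31.1 and 14.8 CPM in male normoxia, 8.21, 15.2 and 12.1 in male hypoxia, 22.9, 23.8 and 10.9 in female normoxia and 10.7, 11.0 and 9.68 in female hypoxia. Library 3 of each normoxic group lay within or close to the hypoxic range (log2 -0.98 ± 0.24, adjusted p = 0.0111). The call was lost on the deposited TPM (-0.61, adjusted p = 0.112) and without the 3 libraries of highest atrial markers (-1.23, adjusted p = 0.0870). Its relative Slc25a36 stood at 0.06 ± 0.13 (adjusted p = 0.759).

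The glutathione carriers Slc25a39 and Slc25a40 had values of -0.35 ± 0.11 (adjusted p = 0.0394) and -0.30 ± 0.12 (adjusted p = 0.0932). Slc25a39 averaged 119 ± 1.68 CPM in male normoxia against 90.6 ± 8.34 in male hypoxia, and 129 ± 32.3 against 104 ± 15.4 in the female groups. The outer membrane member Slc25a46, which acts in mitochondrial shape, averaged 65.6 ± 9.98 CPM in male normoxia against 54.5 ± 6.05 in male hypoxia, and 62.2 ± 6.97 against 50.2 ± 5.04 in the female ones (-0.29 ± 0.10, adjusted p = 0.0438). Both calls sat close to the threshold and were lost without male hypoxia libraries 2 and 3 (adjusted p = 0.271 and 0.253). Slc25a17, the member found in peroxisomes, had a value of -0.02 ± 0.10 (adjusted p = 0.887).

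The 2 members that rose come from different branches. Slc25a30 (ENSMUSG00000022003), a relative of the uncoupling proteins, read 8.62, 8.49 and 7.06 CPM in male normoxia, 10.3, 12.1 and 13.1 in male hypoxia, 8.63, 7.37 and 7.95 in female normoxia and 10.6, 14.5 and 12.3 in female hypoxia. Each hypoxic library was above each normoxic one of its sex, which 7.79% of all genes and only this tested member showed upward in both sexes (log2 0.60 ± 0.11, adjusted p = 0.00286). The rise passed in males (0.56, adjusted p = 0.0317) and in females (0.64, adjusted p = 0.0351). Without the 3 libraries of highest atrial markers the averaged call was lost (0.50, adjusted p = 0.102).

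Slc25a24 (ENSMUSG00000040322), a calcium-regulated carrier of ATP-Mg and phosphate, read 6.41, 5.98 and 6.02 CPM in male normoxia, 9.53, 10.1 and 11.3 in male hypoxia, 7.92, 8.77 and 9.74 in female normoxia and 9.59, 12 and 13.4 in female hypoxia. The male groups were separate and the female groups overlapped at 1 library (log2 0.58 ± 0.10, adjusted p = 0.00292). Without the same 3 libraries its call was lost (0.46, adjusted p = 0.0981). Its relatives, the more abundant Slc25a23 (-0.12 ± 0.10, adjusted p = 0.357) and Slc25a25 (0.14 ± 0.17, adjusted p = 0.555), did not pass. Summed endothelial markers were 755 to 984 CPM in normoxia and 1097 to 1459.9 CPM in hypoxia (6 of 7 rose). Summed fibroblast markers were 644 to 945 CPM in normoxia and 765 to 1666 CPM in hypoxia (5 of 7 rose). Over all tested genes 15.0% rose and 12.9% fell. In bulk tissue fewer cells of a type and less RNA per cell cannot be told apart, and the part of cell makeup, atrial markers included, in the changes of the carriers was not tested. Ventricular cardiomyocyte markers summed to 54127 to 62842 CPM in normoxia and 41615 to 62121 CPM in hypoxia, and 2 of 8 fell.

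The mitoferrins, which carry iron into the matrix, did not pass. Slc25a37 (ENSMUSG00000034248), the form of red cell precursors, was 20.7, 21.7 and 21.0 CPM in male normoxia, 22.0, 22.5 and 22.2 in male hypoxia, 20.1, 23.8 and 19.4 in female normoxia and 20.2, 23.5 and 23.1 in female hypoxia. The male hypoxic libraries were all slightly higher and the female groups overlapped (log2 0.08 ± 0.07, adjusted p = 0.442). It passed upward when scaled by library size alone (0.28, adjusted p = 0.0391) and on the deposited TPM (0.43, adjusted p = 0.0203), against median genes of 0.20 and 0.29 on those scales. Summed erythroid markers over the same libraries were 1582 to 2229 CPM in normoxia and 6735 to 11937 CPM in hypoxia. All 7 tested erythroid markers rose, against 15.0% of all tested genes. Slc25a28 (ENSMUSG00000040414), the broadly expressed form, was 10.6, 12.3 and 7.58 CPM in male normoxia, 10.4, 12.5 and 6.17 in male hypoxia, 9.73, 9.42 and 15.3 in female normoxia and 9.53, 6.03 and 6.92 in female hypoxia (-0.34 ± 0.21, adjusted p = 0.239).

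The other tested members did not pass. The citrate carrier Slc25a1 (0.06 ± 0.14) and the dicarboxylate carrier Slc25a10 (0.04 ± 0.11) had adjusted p of 0.787 and 0.796. The ornithine carrier Slc25a15 (-0.19), the glycine carrier Slc25a38 (-0.13) and the branched-chain amino acid carrier Slc25a44 (-0.10) had adjusted p from 0.133 to 0.406. Of the other uncoupling protein relatives, Slc25a27 had -0.38 ± 0.15 (adjusted p = 0.0841) and Slc25a14 0.26 ± 0.21 (adjusted p = 0.398). Slc25a53, at 15 to 37 counts per library, had -0.18 ± 0.24 (adjusted p = 0.593).

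Within each sex fewer members passed. In males 16 of 39 had all hypoxic libraries below all normoxic ones and 4 above them (19.8% and 21.5% of all genes), and in females 7 and 1 (12.7% and 13.2%). In males 6 members fell and 2 rose, against 7.10% of all genes lower and 8.47% higher. These were Slc25a13, Slc25a20, Slc25a29, Slc25a33, Slc25a34 and Slc25a42, and Slc25a24 and Slc25a30. In females Slc25a13 and Slc25a34 fell and Slc25a30 rose, against 2.02% and 3.97% of all genes. For Slc25a42 the male and female values were -0.86 and -0.78, with adjusted p of 0.0209 and 0.0552, so the 2 sexes lay on either side of the threshold with nearly the same change.

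The test of the difference between the sexes' responses passed for 0 of 39 members by edgeR's quasi-likelihood test, against 0.00716% of all genes, and for 0 by DESeq2 and by limma voom. At an unadjusted p under 0.05, 1 member, Slc25a29, passed by edgeR (6.79% of all genes). Females against males gave 0 members in normoxia (0.0716% of all genes) and 0 in hypoxia (0.150%) with the same 3 tools, and at an unadjusted p under 0.05 by edgeR 1 in normoxia, Slc25a24 (7.29% of all genes), and 2 in hypoxia, Slc25a29 and Slc25a32 (9.63%). The largest interaction value was that of Slc25a35 (0.85, adjusted p = 0.785), whose female normoxia library 3 was the low one described above.

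**Figure D4:**
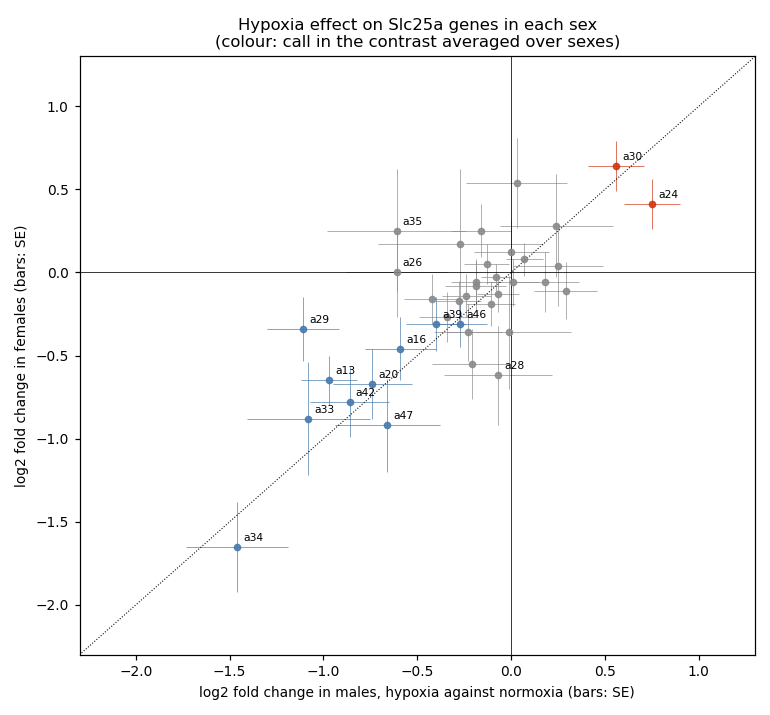
Log2 fold change of tested Slc25a genes in males (horizontal) and females (vertical) with SE bars; the dotted line marks equal change and colours give the call averaged over the sexes. The members drawn as lower lie in the lower left and the 2 drawn as higher in the upper right, while Slc25a35 is negative in males and positive in females with wide bars.

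For some members the deposited counts and TPM differed in pattern. The table gives an average transcript length per gene and library, which moves when reads are assigned to shorter or longer transcripts of a gene. It varied more than 1.5-fold between libraries for 10 of the 39 tested members. For Slc25a22 it ran from 123 to 793 bases, a 6.42-fold range, and for Slc25a12 from 468 to 1214 bases. The counts of Slc25a12 were close within each normoxic group, while its TPM in male normoxia was 203, 248 and 117 and its lengths were 626, 567 and 1055 bases. A shorter length went with a higher TPM. In hypoxic females its TPM was 271, 137 and 95.2 at lengths of 549, 811 and 1209 bases. With the deposited lengths as an offset in the edgeR fit, its change was -0.52 with an adjusted p of 0.299.

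Slc25a22 was singled out here after its values were seen. Its counts were 23.0, 17.7 and 41.6 CPM in male normoxia, 31.3, 18.0 and 18.9 in male hypoxia, 18.4, 18.8 and 19.4 in female normoxia and 31.2, 7.29 and 25.1 in female hypoxia. The lengths in female hypoxia were 554, 123 and 413 bases, and the TPM there was 35.0, 39.6 and 44.2, so that the library lowest by count was not lowest by TPM. With the length offset Slc25a22 passed downward (-0.74, adjusted p = 0.0446), and on the deposited TPM it did not (-0.45, adjusted p = 0.176). Which transcripts carried the reads was not analysed here.

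**Figure D5:**
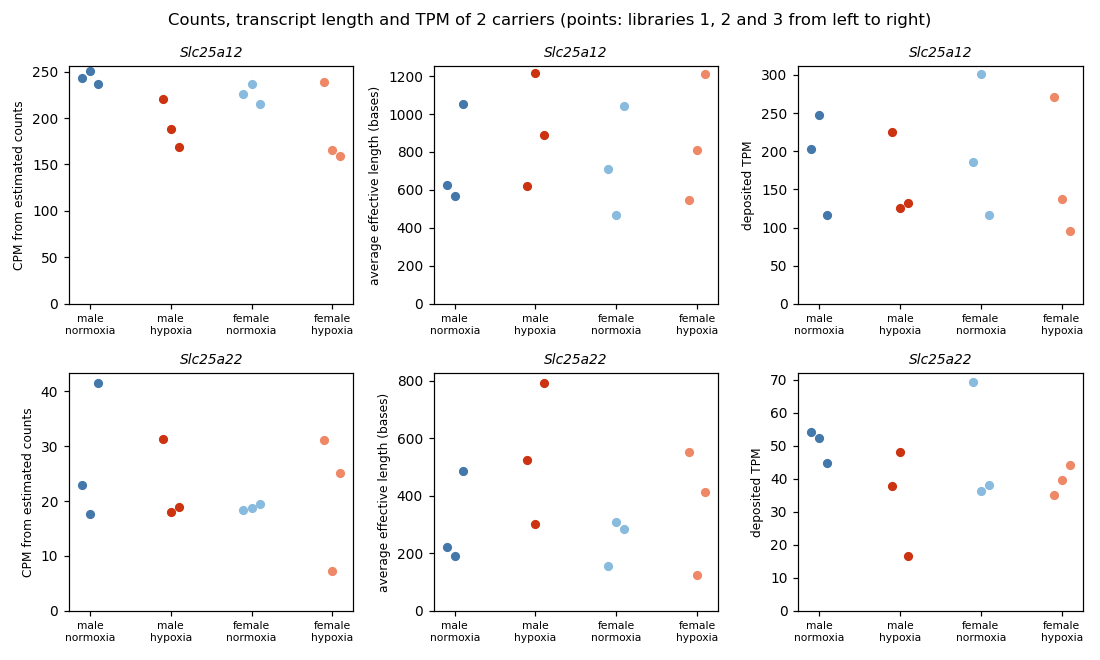
CPM, average effective transcript length in bases and deposited TPM of Slc25a12 (top) and Slc25a22 (bottom) in every library; each point is a library and axes start at 0. Slc25a12 spans 468 to 1214 bases and Slc25a22 123 to 793 bases, and the lengths of normoxic and hypoxic libraries overlap in both sexes.

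The genes around the carriers were read from lists of pathway neighbours. Over all tested genes 12.9% were lower and 15.0% higher. The lists were chosen with earlier results of these data known, so a count above these shares cannot be read as a tested excess. Of the 11 enzymes on either side of the carriers 6 fell and 1 rose, with a median of -0.36. Cpt2, which takes over the acylcarnitine that Slc25a20 delivers, averaged 242 CPM in male normoxia against 113 in male hypoxia, and 247 against 131 in the female groups (log2 -1.01 ± 0.12, adjusted p = 0.000466). Crat, which forms acetylcarnitine, changed by -0.79 ± 0.14 (adjusted p = 0.00252), Ppif, the cyclophilin of the permeability pore, by -0.48 ± 0.10 (adjusted p = 0.00536) and Cpt1b, the muscle enzyme that makes acylcarnitine, by -0.51 ± 0.15 (adjusted p = 0.0277).

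Among 4 tested family members with other symbols, 2 fell and 2 rose. Ucp3, the muscle uncoupling protein, averaged 48.3 CPM in male normoxia against 19.2 in male hypoxia, and 48.0 against 13.4 in the female groups (log2 -1.60 ± 0.33, adjusted p = 0.00560), while Slc25a30, named above as a relative, rose. Mtch2 fell (-0.29 ± 0.06, adjusted p = 0.00637), and Ucp2 (0.48 ± 0.13, adjusted p = 0.0173) and Mtch1 (0.35 ± 0.10, adjusted p = 0.0239) rose. Of 18 other inner membrane transporters 4 fell and 1 rose (median -0.08). Those of smallest adjusted p included Sfxn4 (-0.75 ± 0.11, adjusted p = 0.00115), Mpc2, a subunit of the pyruvate carrier (-0.38 ± 0.09, adjusted p = 0.00959) and Sfxn3 (0.77 ± 0.18, adjusted p = 0.0109). Of 5 listed outer membrane proteins, the channels Vdac1, Vdac2 and Vdac3 with Tspo and Abcb6, 3 fell and 1 rose (median -0.25). These were Abcb6 (-0.48 ± 0.07, adjusted p = 0.000845), Tspo (0.61 ± 0.10, adjusted p = 0.00208), Vdac1 (-0.31 ± 0.09, adjusted p = 0.0278) and Vdac3 (-0.25 ± 0.08, adjusted p = 0.0371). Of 7 genes that import carrier proteins 1 fell, the lipid kinase Agk (-0.56 ± 0.15, adjusted p = 0.0153). Over all 45 tested genes of these lists 16 fell and 5 rose.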

How the data were processed

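Ventricular RNA of 12 libraries was sequenced from a directional mRNA kit, per the labels' protocols. Salmon, FastQC and the GRCm39 build are named in the submitters' processing notes; versions, annotation release and strand setting are not given in the sources used here. The authors deposited 1 table holding estimated counts, TPM (889905 to 926060 summed per library) and average transcript length, per the file headers. Symbols were found for 99.3% of 39210 genes.

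Estimated counts were rounded and fitted with edgeR 4.0.16 (R 4.3.3): the quasi-likelihood test on 4 group means over all 12 libraries (8 residual degrees of freedom), the filterByExpr filter (13960 genes), TMM, Benjamini-Hochberg over all genes and a threshold of 0.05. Contrasts were hypoxia against normoxia averaged over the sexes and in each, their difference, and females against males. SE was taken from the log2 change and F. DESeq2 1.42.0, limma 3.58.1 (TPM as log2(TPM + 0.1)), other scalings, filters, the length offset and left-out libraries were alternatives; library size only, limma on TPM and the fit without the 3 libraries of highest atrial markers were chosen after seeing the data. In data simulated for the averaged contrast on 13809 genes, 97% of 99 genes at a log2 change of 1 and 51% of 98 at 0.5 were recovered, with 5 false calls. The simulation gave all genes and libraries the same excess spread, balanced rises and falls, and no libraries that stood apart. The real libraries differ in this, so these rates are a check of the code and not the power or error rate here.

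Members and lists were chosen with earlier results of these data known. Values per library are given for the 5 members of highest mean TPM, up to 8 calls of smallest adjusted p each way, the mitoferrins, and Slc25a4, Slc25a5 and Slc25a20; up to 4 genes of smallest adjusted p per context list are named. Protein sequences were not used here. The values of 1 member and 1 context gene are not reported here, in text or figures; counts include them.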

Additional observations from a re-analysis of the deposited data

How the results depend on the processing

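Of the 13 calls averaged over the sexes, Slc25a13 and Slc25a34 passed in all 26 alternatives and Slc25a24, Slc25a30 and Slc25a42 in 25, whereas Slc25a39 and Slc25a46 passed in 5 and 4 of the 12 fits that left out 1 library. Averaged over the sexes, 5 members were higher and 6 lower on the deposited TPM; 4 were lower without male hypoxia libraries 2 and 3, and 5 without these and female normoxia library 3, and 8 to 14 were lower leaving out 1 library. In males the higher count of 2 became 1 with the length offset and with no filter, 0 in both fits without male hypoxia libraries 2 and 3, 5 on TPM, and 1 to 2 leaving out 1 library. The male lower count of 6 became 12 with only the libraries compared, 0 and 1 in those 2 fits, 3 on TPM, and 3 to 10 leaving out 1 library, with 10 without female normoxia library 3 and 3 without male normoxia library 2 or male hypoxia library 2 or 3. In females the higher count of 1 became 0 with the length offset, no filter, only the libraries compared, both of those fits and TPM, and 0 to 2 leaving out 1 library. The female lower count of 2 became 5 with DESeq2, 0 with only the libraries compared, 5 without male hypoxia libraries 2 and 3 and female normoxia library 3, 1 with library size only, 1 on TPM, and 0 to 7 leaving out 1 library, with 7 without female hypoxia library 1. Without male hypoxia libraries 2 and 3 and female hypoxia library 3, a fit chosen after seeing the data, 2 members were lower and 0 higher averaged over the sexes, and 0 were lower or higher in males or in females. The causes were not tested.

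With the replicate number as a block, 12 of the 13 averaged calls passed (Slc25a46 did not), Slc25a11 and Slc25a12 were added, and 0 members were higher in females. Deviations of same-numbered libraries correlated at -0.05 to 0.19, so the numbers were not taken to pair the samples.

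Signs were followed across fits only for the averaged calls and for Slc25a3, Slc25a4, Slc25a5, Slc25a11, Slc25a12, Slc25a22, Slc25a26, Slc25a28, Slc25a35 and Slc25a37. Among members not followed, Slc25a15, Slc25a17, Slc25a23, Slc25a38, Slc25a44, Slc25a51 and Slc25a53 had negative averaged values by TMM but higher mean TPM in hypoxia in both sexes. Among the followed members, signs turned for 8. On TPM, Slc25a3 became 0.07, Slc25a4 0.15, Slc25a5 0.27, Slc25a11 0.04, Slc25a46 0.03, Slc25a26 0.05 and Slc25a35 0.22. With library size only, Slc25a4 became 0.05, Slc25a5 0.16, Slc25a22 0.14 and Slc25a35 0.01. Without male hypoxia libraries 2 and 3, Slc25a5 became 0.02 and Slc25a22 0.18, without female normoxia library 3 as well 0.06 and 0.19, and without female hypoxia library 3 instead 0.04 and 0.10. Leaving out 1 library gave Slc25a22 values of 0.16, 0.02, 0.01 and 0.15 (male normoxia 3, male hypoxia 2, male hypoxia 3, female hypoxia 2) and Slc25a35 0.03 (female normoxia 2). Among the fits that left out libraries, the lowest values were -0.08 for Slc25a5 (without male hypoxia library 1 or female normoxia library 2), -0.24 for Slc25a22 (without female hypoxia library 1) and -0.41 for Slc25a35 (without male hypoxia libraries 2 and 3 and female normoxia library 3).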
